A study of Arabidopsis thaliana with 4 samples.

Results

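The WRKY genes encode a large family of plant transcription factors, and 57 of them are described here. They were chosen by locus code as members of the family, without regard to their values, from the 32627 genes of an array study of Arabidopsis thaliana seedlings. Each of the 57 loci had a value on every array, and all of them were found in the NCBI gene table. The study compared seedlings of the Col-0 wild type with seedlings of the same background that carried the transgene 35S::JMJ30-HA. In this transgene the 35S promoter of cauliflower mosaic virus, active in most plant tissues, drives an HA-tagged form of JMJ30, the gene of a jumonji-domain histone demethylase. The transgenic plants are labelled late flowering and the wild type normal flowering, and the labels do not say how many independent transgenic lines were used. The labels name no further treatment for either genotype, and the plants grew on soil at 22 °C under a day of 16 hours light and 8 hours dark, and were harvested 13 days after germination. Each genotype had 2 one-colour arrays from biological replicates numbered 1 and 2. The main p-values for genotype rest on the spread between the 2 arrays of each genotype. Those for the replicate numbers rest on how far the genotypes disagreed on that difference. Both are moderated by the spread of all genes. Arrays of the same number are called set 1 and set 2 here, since the series describes independent sets that hold both genotypes, without saying what a set shared.

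WRKY proteins bind DNA through the WRKY domain, a conserved stretch named after its first amino acids and folded around a zinc ion, which recognises the short W-box element in promoters. In Arabidopsis many of the genes are switched on within minutes of a pathogen signal, wounding or abiotic stress, often downstream of MAP kinases, and the proteins activate or repress defence genes and one another. Others act in development, among them the formation of trichomes, seeds, pollen and stems, or in leaf senescence and nutrient uptake. The family is divided by the number of WRKY domains and the type of zinc finger. Group I proteins carry a pair of domains, group II proteins a single domain (subgroups IIa to IIe), and group III proteins a single domain with a different zinc finger. The 57 genes fall into 13 of group I, 3 of IIa, 7 of IIb, 13 of IIc, 6 of IId, 7 of IIe and 8 of group III. Statements on the family or a subgroup below cover these 57 listed genes, which need not be the whole family or subgroup.

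The median intensity of the arrays lay between 25.6 and 26.6. JMJ30 itself read 705 and 567 on the wild-type arrays and 1054 and 721 on the transgenic arrays, a log2 difference of 0.46 ± 0.27 (SE) that missed the threshold (limma adjusted p = 1.0 over all genes), although both transgenic arrays were above both wild-type arrays. The sources used here do not say which part of the transcript its probes cover. All 5 markers of green tissue were bright, with sums of 4816 to 5524 per array. All 5 root markers, 4 seed markers and 3 floral organ markers lay near background, with sums per array of at most 28.9, 23.9 and 19.3. The 5 root markers chosen were thus not seen above background in samples labelled as seedlings. These 5 genes do not stand for all root tissue, so whether roots were in the samples was not settled. Since seedlings hold many cell types, fewer cells that express a gene and less RNA per cell cannot be told apart in any value below.

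Of the 57 WRKY genes, 37 had a mean above the valley at an intensity of 12.9 that separates the dim and the bright mode of all genes, and the other 20 are called near background. This is a description of signal and no detection call. Intensities of different genes come from different probes, so their heights do not measure relative transcript amounts. They served to place genes beside the valley and to choose the brightest members to name. All 6 listed genes of subgroup IId, whose proteins bind calmodulin, lay above the valley, with array values from 37.9 to 318. So did 11 of the 13 genes of group I. The exceptions there were WRKY10, which acts in the endosperm of the seed, and WRKY34, known from pollen, with array values between 3.63 and 7.04. Subgroup IIc held 7 of the 20 genes near background, namely WRKY12, WRKY43, WRKY45, WRKY48, WRKY51, WRKY57 and WRKY75. Group III was split, with WRKY41, WRKY53, WRKY54 and WRKY70 above the valley and WRKY30, WRKY38, WRKY46 and WRKY55 near background. In IIb WRKY6, WRKY42 and WRKY47 lay above it and WRKY9, WRKY31, WRKY36 and WRKY61 below, in IIe WRKY14 and WRKY35 lay below, and in IIa WRKY60. WRKY41 and WRKY28 were the genes just above the valley, at mean intensities of 13.04 and 13.05, and WRKY35 was the nearest below, at 9.74.

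The brightest listed member of each subgroup was WRKY20 in group I, WRKY18 in IIa, WRKY6 in IIb, WRKY50 in IIc, WRKY21 in IId, WRKY16 in IIe and WRKY70 in group III. WRKY20 (AT4G26640) read 344 and 471 on the wild-type arrays and 396 and 455 on the transgenic arrays. WRKY21 (AT2G30590) read 318 and 265 on the wild-type arrays and 298 and 278 on the transgenic arrays. WRKY6 (AT1G62300), which acts in senescence and in the control of phosphate transfer to the shoot, read 172 and 184 on the wild-type arrays and 155 and 186 on the transgenic arrays. These 3 genes differed little between genotypes, by 0.076, -0.0098 and -0.065 on the log2 scale, and their arrays overlapped.

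**Figure D1:**
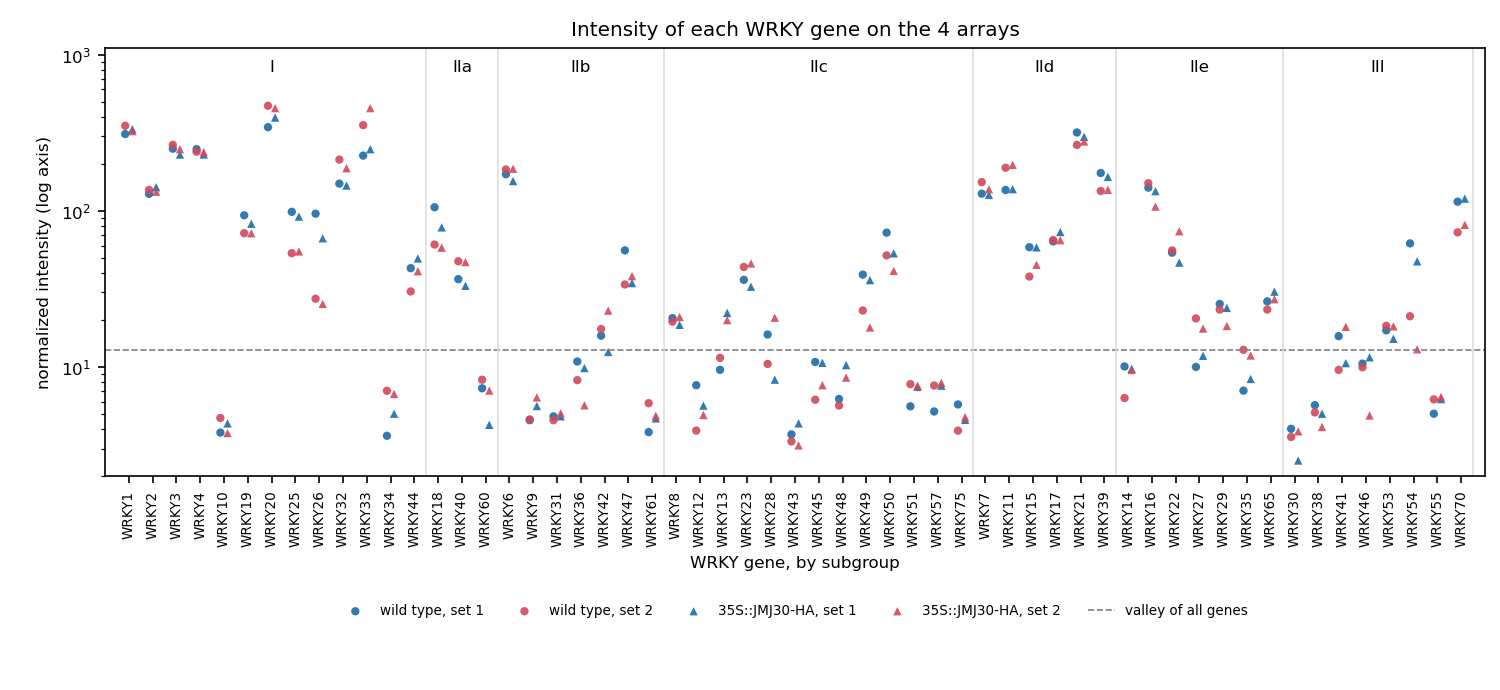
Normalized intensity (log axis) of the 57 WRKY genes on the 4 arrays, ordered by subgroup; circles are wild-type arrays, triangles are 35S::JMJ30-HA arrays, colours give the set and the dashed line marks the valley at 12.9. All 6 listed genes of IId and 11 of 13 listed genes of group I have means above the line, and 7 of 13 listed genes of IIc below it.

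The first comparison asks which WRKY genes differ in level when JMJ30 is expressed from the 35S promoter. No WRKY gene reached an adjusted p below 0.05 (limma, 2 arrays per genotype, Benjamini-Hochberg over 32627 genes), and 0 of all genes were called (0%). At an unadjusted p below 0.05, 2 of the 57 stood out (3.51%), both higher in the transgenic line, beside 2.99% of all genes in either direction and 1.4% higher. The median log2 difference of the family, transgenic line minus wild type, was -0.0098, against -0.0039 for all genes. Of the 57, 27 read higher and 30 lower in the transgenic line. The genotypes did not overlap for 6 genes that read higher in the transgenic line and 5 that read lower, which is 10.5% and 8.77% of the family beside 12.7% and 13.3% of all genes. These counts are small, and their gaps from the shares of all genes were not tested. The genotype fit leaves set differences in its error, so genes that differed between the sets got wider errors than with the set as a second term (the replicate block). For WRKY54 the SE of the genotype difference was 0.78 without the block and 0.18 with it.

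The member with the largest difference above the valley was WRKY13, which acts in stem and secondary wall development and is reported to delay flowering in short days, opposite to its relative WRKY12. WRKY13 (AT4G39410) read 9.59 and 11.4 on the wild-type arrays and 22.2 and 19.97 on the transgenic arrays. Both transgenic arrays were above both wild-type arrays, and the wild-type arrays lay just under the valley, so that its mean was above the valley only through the transgenic arrays. On the log2 scale WRKY13 differed by 1.01 ± 0.20 (SE), with values of 1.21 in set 1 and 0.80 in set 2; the 95% interval ran from 0.49 to 1.52 before adjustment. It did not pass over all genes (unadjusted p = 0.00384, limma adjusted p = 1.0), and it was the 1 member with a 2-fold difference between genotypes, beside 0.343% of all genes. With log2(value + 16) the difference was 0.48. WRKY12, near background, read 7.64 and 3.92 on the wild-type arrays and 5.66 and 4.93 on the transgenic arrays, and its arrays overlapped.

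The other member at an unadjusted p below 0.05 was WRKY48 (AT5G49520), a repressor of basal defence, which falls outside the rule for named genes and was chosen after its values were seen. It was near background at 6.24 and 5.66 on the wild-type arrays and 10.3 and 8.54 on the transgenic arrays, a log2 difference of 0.66 ± 0.20 (SE) that was 0.72 in set 1 and 0.59 in set 2. WRKY44 (AT2G37260, TTG2), which acts in trichomes and the seed coat, read 42.9 and 30.5 on the wild-type arrays and 49.6 and 41.1 on the transgenic arrays. Its arrays overlapped, and the log2 difference of 0.32 ± 0.25 (SE) was 0.21 in set 1 and 0.43 in set 2. WRKY65 (AT1G29280) read 26.3 and 23.3 on the wild-type arrays and 30.4 and 27.1 on the transgenic arrays, a log2 difference of 0.21 ± 0.19 (SE) with no overlap between the genotypes. WRKY33 completes the 4 higher members, and its arrays followed the sets more than the genotype, as given below.

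In the other direction, WRKY50 (AT5G26170), which takes part in the repression of jasmonate signalling by salicylic acid, read 72.5 and 51.8 on the wild-type arrays and 53.5 and 41.3 on the transgenic arrays. On the log2 scale it differed by -0.38 ± 0.26 (SE), with values of -0.44 in set 1 and -0.33 in set 2. WRKY16 (AT5G45050, TTR1), whose protein joins a WRKY domain to a resistance protein of the TIR-NBS-LRR class, read 141 and 150.4 on the wild-type arrays and 134 and 107 on the transgenic arrays, a difference of -0.29 ± 0.21 (SE) with both transgenic arrays the lower. WRKY29 (AT4G23550), an early gene of the response to bacterial flagellin, read 25.3 and 23.3 on the wild-type arrays and 23.9 and 18.3 on the transgenic arrays, a difference of -0.22 ± 0.22 (SE). WRKY47 (AT4G01720) read 55.8 and 33.8 on the wild-type arrays and 34.5 and 38.2 on the transgenic arrays, and its difference of -0.26 ± 0.29 (SE) was -0.70 in set 1 and 0.18 in set 2, so the sets disagreed on its sign. None of these genes passed the limma test (adjusted p = 1.0 for each).

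Above the valley, 14 of 37 WRKY genes read lower in the transgenic line in both sets taken apart (37.8%) and 6 read higher in both (16.2%). The same held for 25.3% and 24.1% of all genes above the valley. All 3 genes of IIa, of which WRKY60 is near background, read lower in both sets, at differences of -0.25 for WRKY18, -0.079 for WRKY40 and -0.50 for WRKY60, the last at -0.14 with log2(value + 16). The medians over the 37 genes were -0.10 in set 1 and -0.0013 in set 2. Among the 6 always named members, WRKY53 and WRKY70 had differences of -0.095 and 0.11.

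**Figure D2:**
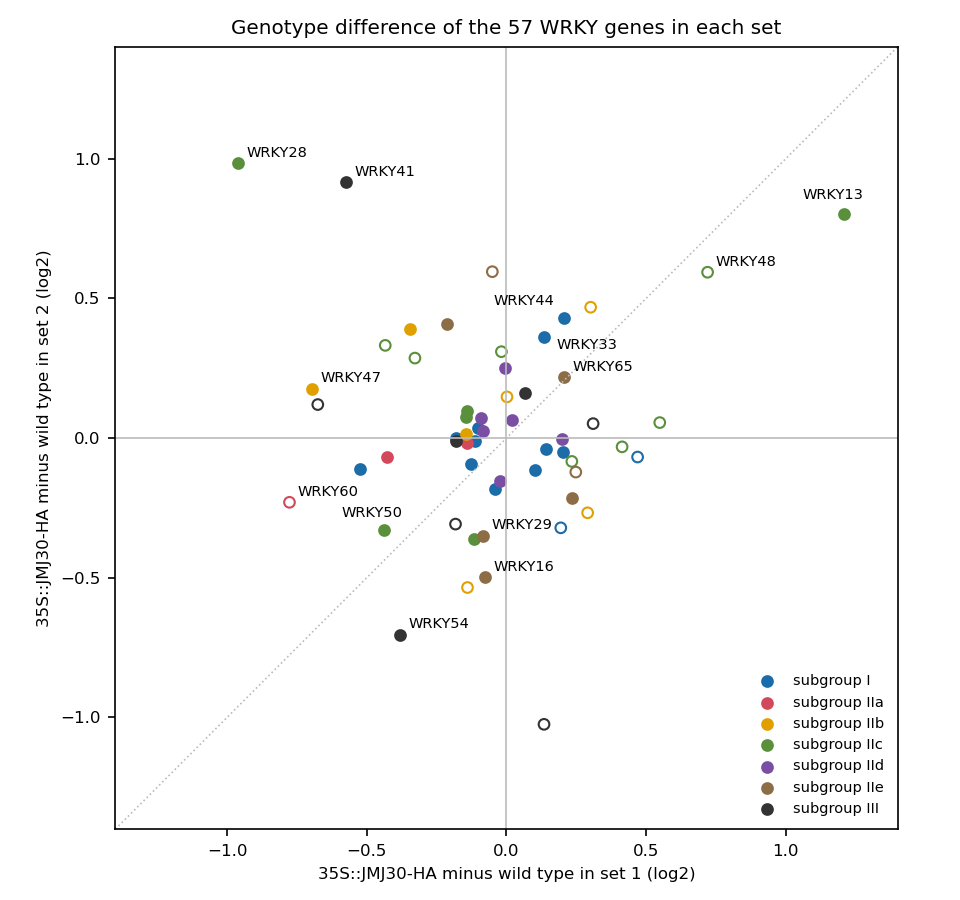
Log2 difference of each of the 57 WRKY genes between 35S::JMJ30-HA and wild type in set 1 (x axis) and in set 2 (y axis), coloured by subgroup; filled points lie above the valley, open points near background, and the dotted line marks equal values. WRKY13 (1.21 in set 1 and 0.80 in set 2) lies at the upper right, while WRKY28 and WRKY41 lie at the upper left, with opposite signs in the sets.

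The arrays were also compared between the sets, as set 2 minus set 1 with genotype as a second term. WRKY54 and WRKY26 (AT5G07100) read at least 2-fold lower in set 2 in both genotypes, and WRKY25, WRKY49, WRKY70 and WRKY18 (AT4G31800) read lower by smaller amounts, whereas WRKY33, WRKY27, WRKY11, WRKY32 and WRKY40 (AT1G80840) read higher. In the fit over all 32627 genes no WRKY gene passed an adjusted p of 0.05, beside 4 of all genes (0.0123%). At an unadjusted p below 0.05, 16 of the 57 stood out (28.1%), 9 lower and 7 higher in set 2, beside 15.5% of all genes, 7.11% lower and 8.35% higher. Fitted over the 18081 genes above the valley alone, 7 of 37 WRKY genes were called, beside 9.29% of those genes (5.09% higher and 4.19% lower). The 5 lower were WRKY54 (limma adjusted p = 0.00268), WRKY26 (0.00404), WRKY49 (0.016), WRKY25 (0.0184) and WRKY70 (0.0394). The 2 higher were WRKY33 (0.0241) and WRKY27 (0.0299). WRKY27 entered that fit only through set 2, where it is high, since both set 1 values lay under the valley, and it was called in none of the other fits (limma adjusted p = 0.21 over all genes). With log2(value + 16) over all genes 7 were called, 2 higher and 5 lower, beside 5.66% of all genes (3.04% higher and 2.62% lower), and with trend and robust priors 10, 4 higher and 6 lower, beside 10.9% (5.95% and 4.94%). At an adjusted p below 0.10 in the first fit WRKY54 alone was called, beside 0.469% of all genes. Under trend and robust priors, the errors of the called members came almost wholly from genes of similar intensity, hardly from the gene's own arrays. Its p-values were much smaller (limma adjusted p = 2.02e-12 for WRKY26, beside 0.102 in the first fit). The calls on the sets therefore depended on the fit, and with 2 arrays per set the labels do not show what the sets differ in.

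The family had no common direction between the sets. Its median log2 difference was -0.0021, beside 0.0091 for all genes, with 28 genes higher and 29 lower in set 2. Arrays of the sets did not overlap for 17 genes that were higher in set 2 (29.8%) and 19 that were lower (33.3%), beside 25.5% and 23.2% of all genes. Both genotypes read higher in set 2 for 21 members (36.8%) and lower for 22 (38.6%), beside 32.3% and 30.1% of all genes. At least 2-fold in both genotypes were 2 members (3.51%), beside 1.41% of all genes. Since the family split in both directions, the account below follows the subgroups and sets close relatives side by side.

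**Figure D3:**
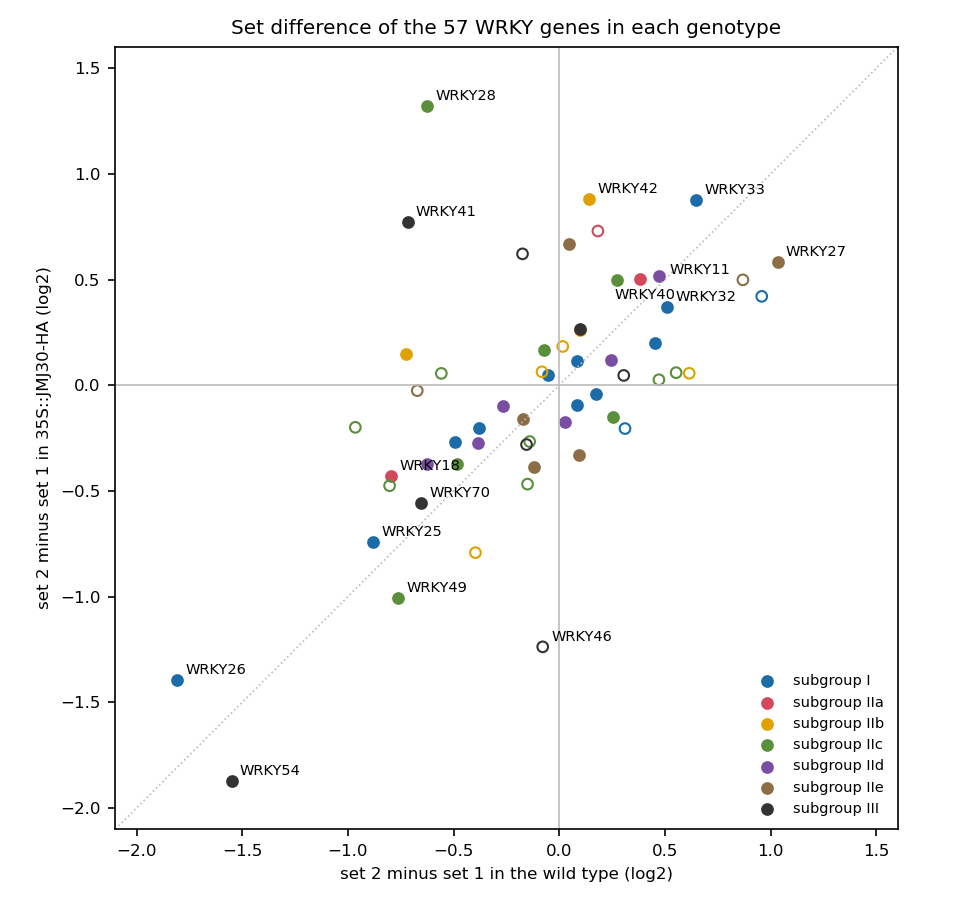
Log2 difference of each of the 57 WRKY genes between set 2 and set 1 in the wild type (x axis) and in 35S::JMJ30-HA (y axis), coloured by subgroup; filled points lie above the valley, open points near background, and the dotted line marks equal values. WRKY26 and WRKY54 lie beyond -1 on both axes, and WRKY33 and WRKY27 lie at the upper right.

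In group I the close relatives WRKY25, WRKY26 and WRKY33 (AT2G38470), which together contribute to heat tolerance, went apart. WRKY26 read 96 and 66.7 in set 1 and 27.4 and 25.4 in set 2, each time the wild type first. All set 2 values were below all set 1 values, and the log2 difference was -1.6 ± 0.19 (SE), -1.81 for wild type and -1.4 for transgenic plants (limma adjusted p = 0.102 over all genes). Among the genes above the valley 0.802% had a set difference at least as large. WRKY25 (AT2G30250) read 98.6 and 91.9 in set 1 and 53.6 and 55 in set 2, a difference of -0.81 ± 0.17 (SE). WRKY33, which is required for camalexin synthesis and for resistance to necrotrophic fungi, went the other way at 226 and 248 in set 1 and 354 and 455 in set 2. Its log2 difference was 0.76 ± 0.17 (SE), 0.65 for wild type and 0.87 for transgenic plants (limma adjusted p = 0.198 over all genes), and all set 2 arrays were above all set 1 arrays.

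Of the remaining group I genes, WRKY32 (AT4G30935) was higher in set 2 at 149 and 145 in set 1 and 213 and 188 in set 2, a difference of 0.44 ± 0.17 (SE). WRKY44 differed by -0.38 on the log2 scale. The pair WRKY3 and WRKY4, which act in resistance to necrotrophs, had set differences of 0.099 and -0.0021 and array values between 229 and 265. Those of WRKY1 and WRKY2 were 0.068 and -0.0057. The set differences of the 13 genes ran from -1.6 to 0.76.

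In subgroup IIa, WRKY18, WRKY40 and WRKY60 encode proteins that bind one another and act together in pathogen response and abscisic acid signalling. WRKY18 read 106 and 78.4 in set 1 and 60.8 and 58.1 in set 2, a difference of -0.61 ± 0.18 (SE). WRKY40 read 36.5 and 33.1 in set 1 and 47.6 and 47 in set 2, a difference of 0.44 ± 0.17 (SE). So WRKY18 was lower and WRKY40 higher in set 2 in both genotypes, with no overlap between the sets for either. Neither was called in the first fit over all genes (limma adjusted p = 0.254 and 0.321). With trend and robust priors WRKY18 was called (limma adjusted p = 0.00485) and WRKY40 was not (0.217). WRKY60 (AT2G25000) was near background at 7.3 and 4.26 in set 1 and 8.29 and 7.06 in set 2.

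In group III, WRKY54 and WRKY70 encode related regulators of salicylic acid responses and leaf senescence, and both were lower in set 2. WRKY54 (AT2G40750) read 61.9 and 47.5 in set 1 and 21.1 and 13 in set 2, with the last value at the valley. Its log2 difference of -1.71 ± 0.18 (SE) was the largest of the family, -1.55 for wild type and -1.87 for transgenic plants (limma adjusted p = 0.0866 over all genes, 95% interval from -2.19 to -1.24 before adjustment). Between genotypes WRKY54 differed by -0.54 ± 0.78 (SE), -0.38 in set 1 and -0.70 in set 2, lower in the transgenic line in both sets (limma adjusted p = 1.0, and 0.825 with the replicate block). WRKY70 (AT3G56400) read 114 and 119.8 in set 1 and 72.8 and 81.4 in set 2, a difference of -0.61 ± 0.17 (SE). WRKY53 (AT4G23810), a positive regulator of leaf senescence, stayed between 15.2 and 18.4 on all 4 arrays, and its difference of 0.18 ± 0.17 (SE) was close to its error. WRKY46 (AT2G46400), another relative, was near background and dimmest on transgenic replicate 2, at 10.5 and 11.5 in set 1 and 9.95 and 4.89 in set 2. WRKY55 (AT2G40740), whose gene neighbours WRKY54, was near background at 5.02 and 6.22 in set 1 and 6.2 and 6.43 in set 2 and differed between the sets by 0.18.

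**Figure D4:**
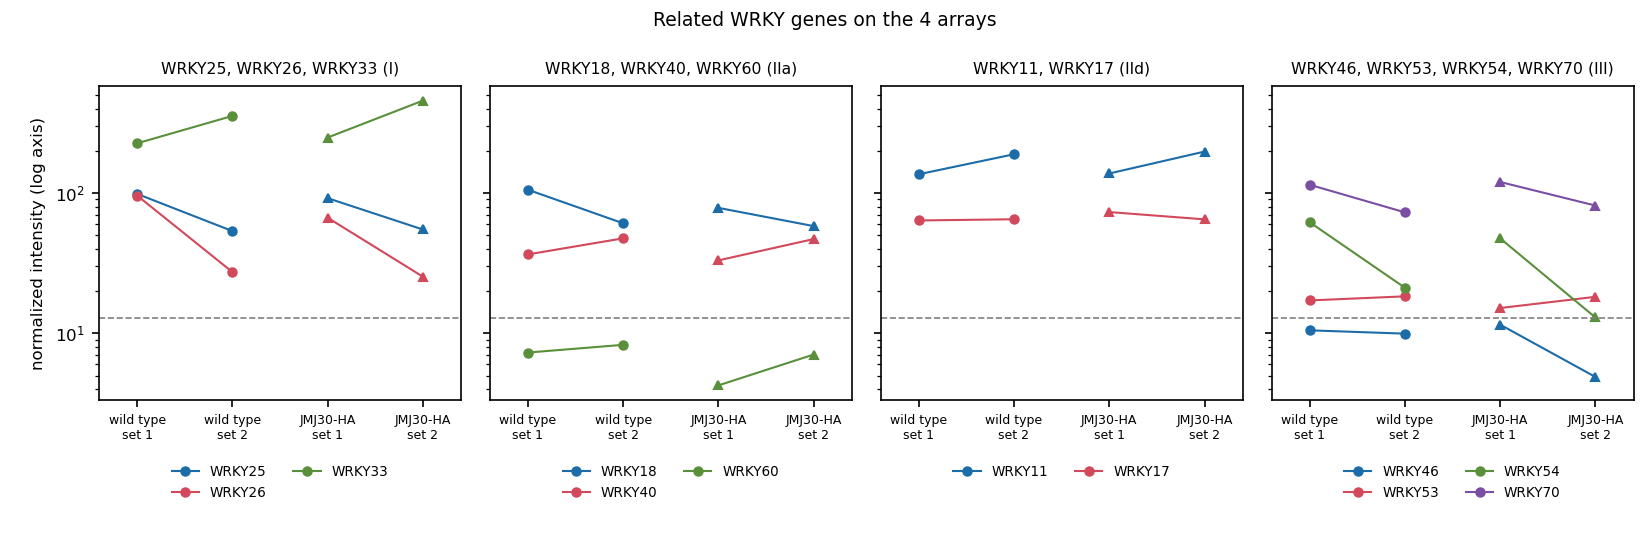
Normalized intensity (log axis) of related WRKY genes on the 4 arrays; lines join the arrays of a genotype from set 1 to set 2, and the dashed line marks the valley at 12.9. In group I WRKY25 and WRKY26 slope down and WRKY33 up, in IIa WRKY18 slopes down and WRKY40 up, in IId WRKY11 slopes up, and in group III WRKY54 and WRKY70 slope down.

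In subgroup IId, WRKY11 and WRKY17 are close relatives that restrain basal resistance to bacteria. WRKY11 (AT4G31550) read 136 and 138 in set 1 and 189 and 197 in set 2, a difference of 0.50 ± 0.16 (SE) with no overlap between the sets. WRKY17 (AT2G24570) read 63.7 and 73.2 in set 1 and 65 and 64.9 in set 2, a difference of -0.072 ± 0.17 (SE) with overlapping arrays. WRKY15 (AT2G23320), which acts in growth under oxidative and salt stress, read lower in set 2 at 58.5 and 58.4 in set 1 and 37.9 and 45.1 in set 2. The other 3 genes, WRKY7, WRKY21 and WRKY39, had set differences of 0.18, -0.18 and -0.33.

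In subgroup IIe, WRKY27 (AT5G52830), which influences symptom development in bacterial wilt, read 10.01 and 11.8 in set 1 and 20.5 and 17.6 in set 2, so that its set 1 values lay under the valley and its set 2 values above it. The difference was 0.81 ± 0.19 (SE), and 0.38 with log2(value + 16). WRKY22 and WRKY29, named together as early genes of the flagellin response, differed in sign, with 0.36 and -0.25. In IIb, WRKY42 (AT4G04450), a relative of WRKY6 that also acts on phosphate transport, read 15.9 and 12.5 in set 1 and 17.5 and 23 in set 2, a difference of 0.51 ± 0.24 (SE) that was 0.14 for wild type and 0.88 for transgenic plants. WRKY6 itself differed by 0.18. The other IIb genes lay between -0.59 for WRKY36, near background, and 0.34 for WRKY61.

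In subgroup IIc, WRKY49 (AT5G43290) read 39.1 and 36 in set 1 and 23 and 17.9 in set 2, a difference of -0.89 ± 0.17 (SE), -0.76 for wild type and -1.01 for transgenic plants. All its set 2 values were below its set 1 values. WRKY50 differed by -0.43, and WRKY23, which acts in auxin transport, by 0.39. WRKY13, the member that differed most between genotypes, differed between the sets by 0.052. WRKY8, a salt and virus response gene, differed by 0.046. The 7 genes near background had set differences from -0.64 for WRKY45 to 0.31 for WRKY57.

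For 11 of the 57 genes the array holds more than 1 transcript model, and the brightest is given above. Both models of WRKY26 gave the same set difference, -1.6 and -1.6. The models of WRKY15 read -0.70 and -0.50, and those of WRKY44 -0.50 and -0.38. For the genotype, the models of WRKY44 read 0.16 and 0.32, whereas those of WRKY15 differed in sign, at -0.13 and 0.12. The dimmer model of WRKY55, near background, read 3.48 and 4.07 on the wild-type arrays and 7.63 and 7.95 on the transgenic arrays, a log2 difference of 1.05 against 0.18 for its brighter model, with no test of the dimmer model made.

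Genes known to act with WRKY factors were taken from a list of 27, which holds MAP kinase cascade members, VQ-motif proteins that bind WRKY factors and reported target genes. Between genotypes none of the 27 was called over all genes, with 0 at an unadjusted p below 0.05 (beside 2.99% of all genes), 11 higher and 16 lower in the transgenic line, and a median log2 difference of -0.035. The largest moderated statistics belonged to FRK1, a target of WRKY6 in senescence, near background at 5.23 and 4.19 on the wild-type arrays and 3.13 and 3.85 on the transgenic arrays, and ACS2, near background at 5.26 and 4.55 on the wild-type arrays and 4.03 and 3.85 on the transgenic arrays. The kinase genes MEKK1, MKK4, MKK5, MPK3, MPK4 and MPK6 had genotype differences between -0.18 and 0.084.

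Between the sets none of the 27 was called in the first fit over all genes. At an unadjusted p below 0.05, 6 stood out (2 higher and 4 lower in set 2), beside 15.5% of all genes, and the list had a median of -0.079. ACS6, an ethylene synthesis gene that WRKY33 is known to bind, read 41.4 and 59.7 in set 1 and 214 and 212 in set 2, a difference of 2.1 ± 0.21 (SE) (limma adjusted p = 0.0808 over all genes). PAD3, the camalexin synthesis gene downstream of WRKY33, was near background and read lower in set 2, at 7.78 and 9.08 in set 1 and 4.53 and 6.23 in set 2. SIB2, whose VQ protein binds WRKY33, read 133 and 141 in set 1 and 61.3 and 66.9 in set 2, a difference of -1.1 ± 0.16 (SE) (limma adjusted p = 0.14). ABI5, a gene of abscisic acid signalling that WRKY40 represses, read 32 and 45.2 in set 1 and 92.4 and 90.5 in set 2. GL2, a trichome gene activated by WRKY44, read 74.9 and 67.3 in set 1 and 40.9 and 37 in set 2. The JAV1 gene, for a jasmonate-associated VQ protein, had a mean near background and read 17.9 and 12.9 in set 1 and 8.12 and 9.05 in set 2. PAD3, ABI5, GL2 and JAV1 were picked after their values were seen. Over the whole list 9 genes read higher and 18 lower in set 2, and no link between a target and its WRKY gene was tested.

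Stress markers differed between the sets as well, and their part in the WRKY differences was not tested. The 5 jasmonate output genes all read lower in set 2, with a median of -1.09, and summed to 2324 and 2281 in set 1 and 1350.1 and 1320.0 in set 2. TAT3 among them read 109 and 141 in set 1 and 3.97 and 4.66 in set 2 and was called over all genes (log2 difference -4.85, limma adjusted p = 0.0434). The salicylic acid output gene PR5 read 109.8 and 135 in set 1 and 33.6 and 38.2 in set 2, a difference of -1.76 ± 0.17 (SE) (limma adjusted p = 0.0751), while PR1 and PR2 were near background. The list of salicylic acid genes summed to 121 and 148 in set 1 and 40.7 and 47.7 in set 2. Most of that sum was PR5, so it is no separate result, and PR1 and PR2 differed between the sets by -0.077 and -0.86. Of 7 genes that respond rapidly to touch and stress, 6 read higher in set 2, with a median of 0.69, and the list summed to 588 and 609 in set 1 and 1087 and 1002 in set 2. TCH2 read 207 and 223 in set 1 and 398 and 404 in set 2 (log2 difference 0.90) and TCH4 157 and 190.2 in set 1 and 367 and 306 in set 2 (log2 difference 0.95). The 5 green tissue markers had a median of 0.012.

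**Figure D5:**
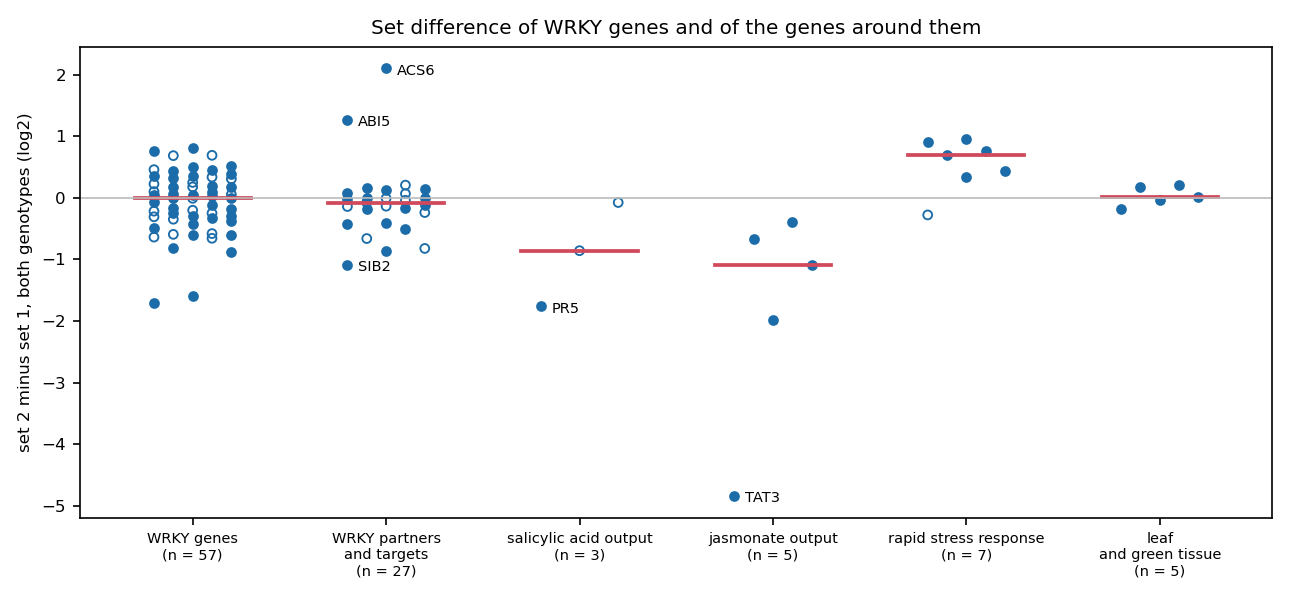
Log2 difference between set 2 and set 1, both genotypes combined, for the 57 WRKY genes, the 27 partner and target genes and 4 marker lists; each point is a gene (open points near background) and red lines are medians. Of the WRKY genes 28 lie above 0 and 29 below, jasmonate and salicylic acid output genes lie below it, and 6 of 7 rapid stress genes lie above it.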

How the data were processed

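The submitters measured total RNA on one-colour NimbleGen arrays labelled with Cy3. The deposited values are normalized intensities on a linear scale, 1 per transcript model (37118 models of 32627 genes), made with RMA per the submitters' processing notes, with no version or setting named. Linear scale was read from the values, which run from 1.5 to 4399.9. RMA evens out arrays, so a shift shared by most genes would not be seen. No probe positions, background readings or detection calls were used, and precision is limited by the number of arrays.

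Log2 was taken with no pseudocount, and a gene was represented by its brightest model on average. The valley between the modes of the mean log2 values (kernel bandwidth 0.19) lay at an intensity of 12.9, with 18081 genes above it. The genotype fit used limma 3.58.1 (lmFit, eBayes, R 4.3.3) with genotype as the only term, the set fit had genotype as a second term, and both were two-sided over all genes with Benjamini-Hochberg adjustment. The threshold for a call was an adjusted p of 0.05. Errors are moderated standard errors. A test of whether set differences differ between genotypes has no residual degrees of freedom. The main fits were run on simulated arrays with noise drawn from the spread estimated here. This checked only that the code returned known differences without a large median error, which a linear fit gives on average. The noise was drawn without regard to intensity, so the check does not show how often real differences would be called. It did not cover the alternative fits. Figures were drawn with matplotlib 3.10.9.

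Same-numbered arrays deviated together from their genotype means (correlation 0.42 across all genes, 0.68 for those above the valley; genes are no independent samples), and the series text speaks of sets. Alternatives were the mean of models, log2(value + 16), a fit over genes above the valley, trend and robust priors, median centring, a threshold of 0.10, the replicate block, the number alone and leaving out each array.

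Named were WRKY18, WRKY40, WRKY60, WRKY33, WRKY53 and WRKY70. Among members above the valley the 4 higher and 4 lower with the largest moderated statistic for genotype, the 6 higher and 6 lower with the largest set difference, and the brightest of each subgroup were added. Every other member named was chosen after its values were seen, to give relatives side by side. In the partner list and the stress lists every called gene, or without one the 2 genes with the largest statistic, were named by rule and others after their values were seen, and the tissue lists are given by count, sum and median. Members, lists and tests were chosen with earlier results of these data known.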

Additional observations from a re-analysis of the deposited data

Results flagged for a closer look

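WRKY28 and WRKY41, both just above the valley and named after their values were seen, read in opposite directions in the sets by at least 0.5 on the log2 scale, a difference that was not tested because 4 arrays leave no residual degrees of freedom. WRKY28, an activator of salicylic acid synthesis, read 16.2 and 10.5 on the wild-type arrays and 8.29 and 20.7 on the transgenic arrays. Its set difference was -0.63 for wild type and 1.32 for transgenic plants, and its genotype difference -0.96 in set 1 and 0.98 in set 2. WRKY41 read 15.8 and 9.58 on the wild-type arrays and 10.6 and 18.1 on the transgenic arrays, with set differences of -0.72 for wild type and 0.77 for transgenic plants and genotype differences of -0.57 in set 1 and 0.92 in set 2. Of the 18081 genes above the valley, 0.26% met the same condition for the set difference and 0.398% for the genotype difference. These shares cover genes of every intensity above the valley and were not matched to the level of WRKY28 and WRKY41. Both conditions rest on the same disagreement among the 4 arrays. The dimmer model of WRKY41 read 6.98 and 4.18 on the wild-type arrays and 6.16 and 5.5 on the transgenic arrays, all near background.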

How the results depend on the processing

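The count of WRKY genes called between genotypes was 0 under the 12 alternatives run, among them the replicate block, with which 3 members (WRKY13, WRKY48 and WRKY54) had an unadjusted p below 0.05 (5.26%, beside 6.01% of all genes) and the count of called genes stayed at 0. The block over genes above the valley was added after the data were seen and is among these. It called 3 of the 18081 genes, none of them a WRKY gene, so the pairing changed no WRKY call. The count called between the sets was 0 as reported, 1 at an adjusted p below 0.10 (WRKY54, beside 0.469% of all genes), 7 with log2(value + 16), 7 over genes above the valley and 10 with trend and robust priors, where 5.66%, 9.29% and 10.9% of all tested genes were called. WRKY25, WRKY26, WRKY33, WRKY49, WRKY54 and WRKY70 were called under all 3 of these. WRKY11 was also called with log2(value + 16), WRKY27 over genes above the valley, and WRKY11, WRKY18, WRKY20 and WRKY32 with trend and robust priors. The count called between the sets was 0 with the mean of models, median centring, the number alone and without each array in turn. With log2(value + 16) 1 gene stayed at least 2-fold apart in both genotypes, in place of 2; leaving out an array removes that comparison in a genotype. The genotype median ran from -0.047 to 0.015 and the set median from -0.071 to 0.011 without each array in turn, and median centring moved every genotype difference by 0.029 and every set difference by -0.033. No named difference changed sign under the other alternatives. Without each array in turn, which mixes set and genotype, genotype differences that changed sign ran from -0.64 to 0.15 for WRKY18, -0.33 to 0.17 for WRKY40, -0.19 to 0.69 for WRKY33, -0.23 to 0.037 for WRKY53, -0.21 to 0.44 for WRKY70, -0.62 to 0.10 for WRKY47. Those of other named genes kept their sign but moved by over 1.5 times, with 0.071 to 0.57 for WRKY44, 0.13 to 0.30 for WRKY65, -0.63 to -0.14 for WRKY50, -0.45 to -0.12 for WRKY16, -0.41 to -0.024 for WRKY29, -0.87 to -0.14 for WRKY60. That of WRKY13 ran from 0.88 to 1.13. Set differences of named genes kept their sign, with WRKY18 (-0.83 to -0.40), WRKY42 (0.32 to 0.71), WRKY53 (0.091 to 0.27), WRKY60 (0.068 to 0.84) moving by over 1.5 times from the value on all 4 arrays. WRKY33 (0.58 to 0.94), WRKY32 (0.35 to 0.53), WRKY49 (-1.07 to -0.71) and WRKY54 (-2.06 to -1.36) moved by less from that value, though their ranges span over 1.5 times from end to end.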
